A study of Mus musculus with 4 samples.

Results

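Glial cell line-derived neurotrophic factor (GDNF) is the growth factor on which spermatogonial stem cells depend for self-renewal. It binds GFRA1, a coreceptor anchored in the cell membrane, and this complex activates the receptor tyrosine kinase RET, which signals through SRC-family kinases, PI3K-AKT and RAS-ERK. Genes described as responding to GDNF in mouse spermatogonial stem cells include transcription factors (Etv5, Bcl6b, Lhx1, Id4, Pou3f1, Mycn) and the cell cycle gene Ccnd2. DNA methylation of these 9 genes (Gfra1, Ret, Etv5, Bcl6b, Lhx1, Id4, Pou3f1, Ccnd2 and Mycn) is described here. They were chosen by symbol among 49554 RefSeq genes of chromosomes 1 to 19 and X, of which 21631 were protein-coding, and each was taken with 10 kb of flank on either side.

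The annotated spans (GRCm38.p6, the assembly of mm10) place the coreceptor gene Gfra1 at chr19:58235581-58455946, the longest at 220.4 kb, and Ret at chr6:118151748-118197744. Etv5 spans chr16:22381313-22439570 and Ccnd2 chr6:127125162-127152188. The other genes are short: Bcl6b (chr11:70224127-70229798), Lhx1 (chr11:84517975-84525534), Id4 (chr13:48261116-48266028), Pou3f1 (chr4:124657646-124660655) and Mycn (chr12:12936093-12941836) each span under 8 kb. Id4 and Pou3f1 lie on the plus strand and the other 7 genes on the minus strand. The listed Gfra1 start, 58455398, lies inside the annotated span.

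The cells were germline stem (GS) cells, cultures of spermatogonial stem cells from testis, kept for approximately 60 months (60M-GS) or 5 months (5M-GS). Both ages came from wild-type Green mice, the line Tg14(act-EGFP)OsbY01 on C57BL/6, of DBA/2 background, so both groups carried the EGFP transgene. Both grew with recombinant rat GDNF, human FGF2 and fetal bovine serum, so GDNF was present throughout in both groups and no culture without it was compared. Whole-genome bisulfite sequencing by post-bisulfite adaptor tagging covered 2 replicates of each age, pooled into 1 table per age before deposit. No spread between replicates could therefore be measured. The labels do not say whether the replicates or the 2 ages came from one derivation, so culture age and culture line cannot be told apart. Tests below set the 2 pooled libraries against each other, and their 95% intervals hold counting error alone.

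In 60M-GS the table had 471693518 calls on 19341319 CpGs (median 22 per CpG) while that of 5M-GS had 468121185 calls on 19371838 CpGs (median 21). Levels are given as methylated calls in percent of all calls, summed over the CpGs of a region that had 5 or more calls in each table. A region was called gained or lost in 60M-GS at a Benjamini-Hochberg adjusted p under 0.05 (two-sided Fisher's exact test, adjusted over all regions of its kind in the genome) and a difference of at least 20 percentage points. Promoter windows of the germ cell genes Ddx4, Dazl, Mael, Sycp3 and Dppa3 lay between 0.684% and 4.90% in 60M-GS and between 2.48% and 5.77% in 5M-GS. Male germ cells carry methylation upstream of H19, which had 91.0% in 60M-GS, against 93.5% in 5M-GS, and lack it at maternally methylated imprinted promoters. Among these promoters, Peg3, Mest, Peg10 and Plagl1 had at most 5.67% in either culture. The Snrpn window, with 6 CpGs at the outermost listed start of a long span, need not be the imprinted promoter, and had 55.6% in 60M-GS, against 41.5% in 5M-GS.

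Sequences of 4 promoters are printed because all 4 were almost free of methylation while their CpG content differed widely. Each is the 250 bases upstream of the start listed by RefSeq (GRCm38.p6; for Etv5 the outer one of 2 starts), 5′ to 3′ on the gene's strand, with every CG in capitals.
Gfra1, chr19:58455399-58455648, minus strand: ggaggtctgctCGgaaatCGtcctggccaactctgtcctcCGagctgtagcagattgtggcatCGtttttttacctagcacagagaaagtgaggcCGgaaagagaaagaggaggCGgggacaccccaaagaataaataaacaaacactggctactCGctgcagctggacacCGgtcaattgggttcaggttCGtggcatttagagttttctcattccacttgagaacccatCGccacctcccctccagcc
Etv5, chr16:22439571-22439820, minus strand: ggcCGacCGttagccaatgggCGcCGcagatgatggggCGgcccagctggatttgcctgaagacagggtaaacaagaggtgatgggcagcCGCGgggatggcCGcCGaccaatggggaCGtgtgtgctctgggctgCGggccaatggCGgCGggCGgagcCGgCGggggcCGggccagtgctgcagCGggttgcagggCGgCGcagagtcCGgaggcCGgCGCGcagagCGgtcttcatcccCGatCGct
Lhx1, chr11:84525535-84525784, minus strand: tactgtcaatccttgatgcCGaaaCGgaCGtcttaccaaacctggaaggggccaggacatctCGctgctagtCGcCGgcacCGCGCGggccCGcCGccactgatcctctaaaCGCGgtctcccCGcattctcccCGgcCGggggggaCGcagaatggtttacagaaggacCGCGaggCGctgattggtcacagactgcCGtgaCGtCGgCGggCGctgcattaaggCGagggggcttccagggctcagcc
Id4, chr13:48260866-48261115, plus strand: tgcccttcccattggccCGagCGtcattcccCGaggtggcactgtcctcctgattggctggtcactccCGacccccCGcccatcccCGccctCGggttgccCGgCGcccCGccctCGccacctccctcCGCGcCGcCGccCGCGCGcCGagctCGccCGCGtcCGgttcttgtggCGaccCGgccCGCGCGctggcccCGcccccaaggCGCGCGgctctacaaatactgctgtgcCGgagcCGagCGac

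The Gfra1 sequence holds 10 CG, more than 62.2% of the 32851 RefSeq promoters of this length, whose median is 6. The Etv5 sequence holds 27, the Lhx1 sequence 26 and the Id4 sequence 35, more than 91.4%, 90.4% and 97.0% of promoters. Methylated calls were nearly missing in all of them, which was a reason for their choice and so not a separate result. Gfra1 had 0 of 255 calls in 60M-GS, which allows up to 1.18%, and 1 of 153 in 5M-GS. Etv5 had 3 of 431 in 60M-GS, against 2 of 473 in 5M-GS. Lhx1 had 1 of 689 in 60M-GS, against 3 of 500 in 5M-GS. Id4 had 0 of 426 in 60M-GS, which allows up to 0.704%, and 1 of 449 in 5M-GS. Of the listed starts not printed, the inner one of Etv5 had 5 of 260 in 60M-GS, against 0 of 280 in 5M-GS. That of Mycn, with 6 of its 11 CG covered, had 0 of 122 in 60M-GS, against 1 of 72 in 5M-GS.

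Promoter windows, which start 1000 bp before the 5′ end and stop 500 bp after it, had at most 6.74% methylated calls in either culture for all 9 genes. For the receptor genes, the Gfra1 window (68 CpGs) had 0.558% methylated calls in 60M-GS, against 0.272% in 5M-GS. The window of Ret, the signalling receptor (56 CpGs), had 0.860% in 60M-GS, against 1.26% in 5M-GS. Among the transcription factors, the ETS factor gene Etv5 had 0.291% in 60M-GS, against 0.320% in 5M-GS. Bcl6b, a BTB zinc finger repressor, had 0.422% in 60M-GS, against 0.341% in 5M-GS. The LIM homeobox gene Lhx1 had 0.316% in 60M-GS, against 0.440% in 5M-GS, and the POU factor gene Pou3f1 had 0.749% in 60M-GS, against 0.791% in 5M-GS. Mycn, of the MYC family, had 0.508% in 60M-GS, against 0.648% in 5M-GS, and the D-type cyclin gene Ccnd2 had 0.335% in 60M-GS, against 0.345% in 5M-GS. These 8 windows differed by less than 1 point each, and none passed the adjusted p.

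Id4 was the exception among these windows. This gene encodes an inhibitor of DNA-binding helix-loop-helix factors and marks spermatogonial stem cells in the mouse. Its window had 6.74% methylated calls in 60M-GS, against 3.60% in 5M-GS, a difference of 3.14 points (1.72 to 4.58; adjusted p = 0.000156, Fisher's exact test), which passed the test and stayed under 20 points. This p counts calls on one read as independent, which they are not. The Id4 unmethylated stretch reached 703 bp upstream in 60M-GS, against 767 bp in 5M-GS, so the upstream rim of the 1000 bp window lay outside it. In all, 0 of 9 member windows were gained and 0 lost, against 4.42% gained and 0.474% lost among 29548 windows of all placed genes. With a window wider on both sides, the counts were also 0 and 0. The median difference over the 9 windows was -0.03 points, beside 0.15 over all windows. All 9 were under 10% in both cultures. Among the 29548 windows, 14149 were under 10% in 60M-GS, against 14828 in 5M-GS. Shares called among members and among all windows therefore compare sets that differ in level.

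How far each unmethylated promoter reached was measured as the stretch around the 5′ end in which the running level over 5 CpGs stayed under 20%. Ccnd2 had the longest, 6727 bp in 60M-GS, against 6925 bp in 5M-GS, longer in 60M-GS than that of 99.6% of the 13631 protein-coding genes with such a stretch in both tables. Next came Lhx1 with 4741 bp in 60M-GS, against 5051 bp in 5M-GS, then Mycn with 4593 bp in both. Pou3f1 had 3777 bp in 60M-GS, against 3806 bp in 5M-GS. These 4 were longer than at least 95.7% of genes in 60M-GS. Gfra1 had 3424 bp in 60M-GS, against 3501 bp in 5M-GS, and Etv5 had 3259 bp in 60M-GS, against 3281 bp in 5M-GS. Id4 measured 2749 bp in 60M-GS, against 2813 bp in 5M-GS, Ret 2347 bp in both, and Bcl6b 2022 bp in 60M-GS, against 2126 bp in 5M-GS. Even Bcl6b, the shortest, exceeded 68.6% of genes, the median gene having 1.64 kb in 60M-GS, against 1.75 kb in 5M-GS.

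**Figure D1:**
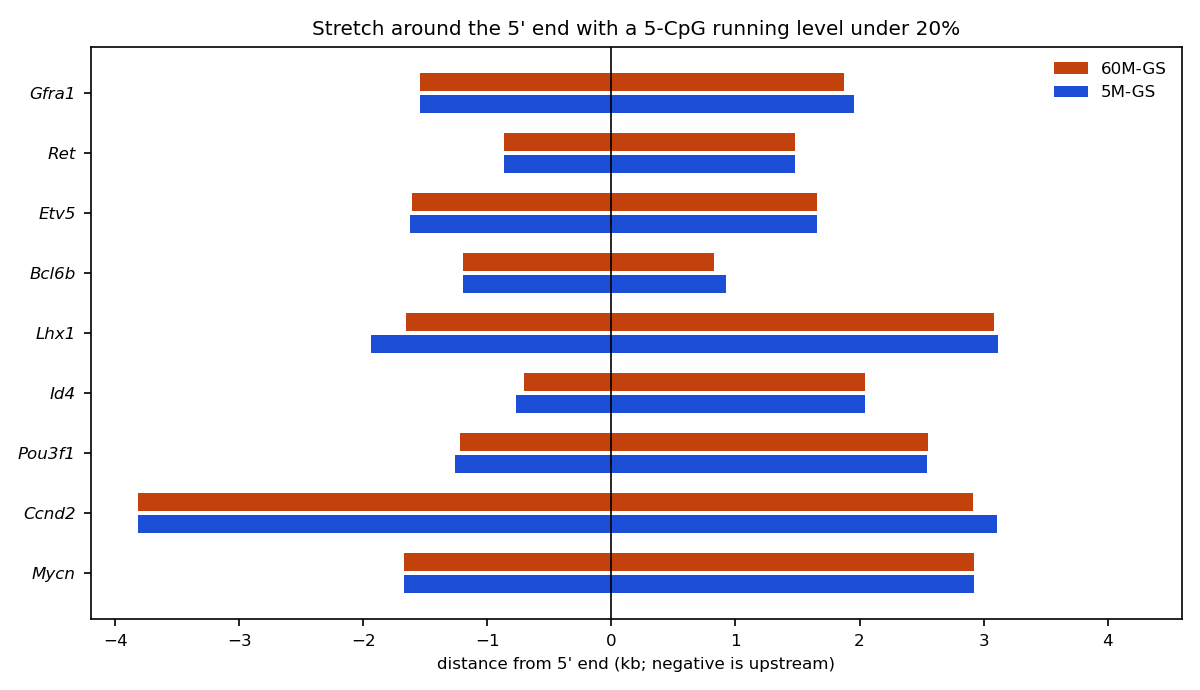
Extent of the unmethylated promoter of each gene in kb from its 5′ end (vertical line), as the stretch with a 5-CpG running level under 20%, 60M-GS above 5M-GS. The 2 bars of each gene end within 310 bp of each other in total length, and Ccnd2 reaches farthest.

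The stretch was shorter in 60M-GS for 7 genes, equal for 2 and longer for 0. The same comparison over all 13631 genes gave 66.9% shorter, 17.9% equal and 15.1% longer, so the direction in these 7 was also that of most genes. The largest reduction, 310 bp at Lhx1, lay mainly on the upstream side, where the stretch ended 1659 bp from the start in 60M-GS, against 1936 bp in 5M-GS. At Ccnd2 the upstream edge was at 3815 bp in both, and the downstream edge at 2911 bp in 60M-GS, against 3109 bp in 5M-GS. These small shifts depend on the threshold: over 4 other settings, 4 to 6 genes were shorter and 1 or 2 longer, and only Gfra1 and Lhx1 were shorter under each of the 5 settings. The 5′ ends of Gfra1, Etv5, Lhx1, Id4 and Mycn came from listed RefSeq starts. Those of Ret, Bcl6b, Pou3f1 and Ccnd2 were the CpG-dense end of the annotated span, a rule that was right for 85.9% of 17069 genes with a listed start.

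**Figure D2:**
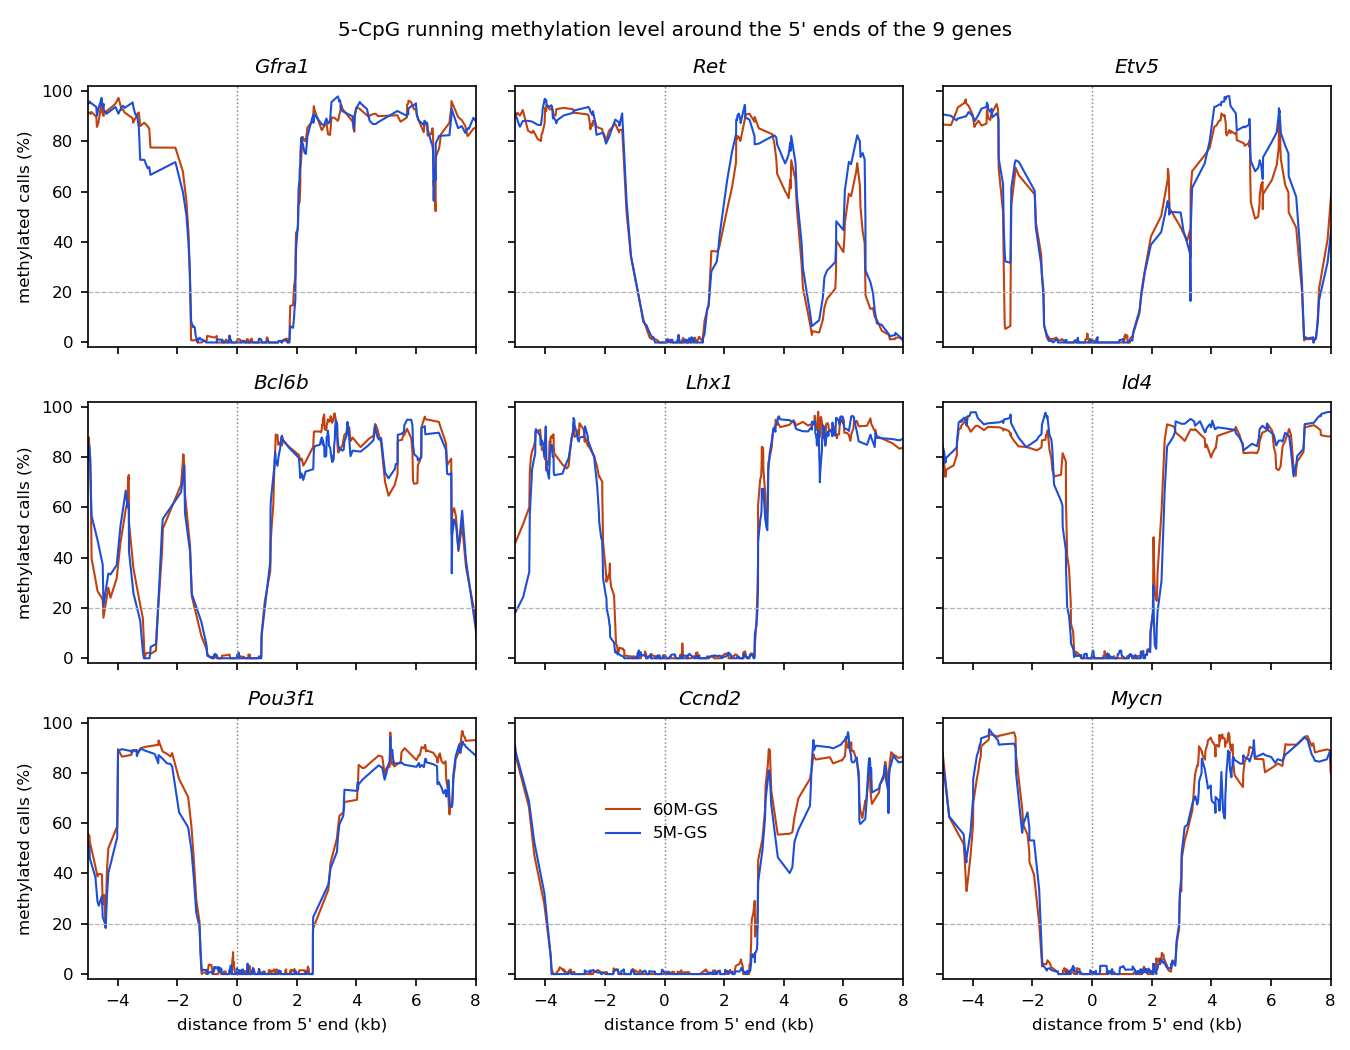
Running methylation level over 5 CpGs (% methylated calls) against distance from the 5′ end in kb for each gene, 60M-GS in orange and 5M-GS in blue, with dashed lines at 20%. Both cultures share a floor near 0 around every 5′ end and nearly the same edges, and further low sites lie downstream in Ret and Etv5.

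At the edges of the unmethylated stretches, 2 tiles differed by more than 10 points and less than 20. Upstream of Lhx1, the tile chr11:84527001-84528000, which also lies over the antisense gene Lhx1os, had 34.2% in 60M-GS, against 21.6% in 5M-GS (12.6 points, 8.29 to 16.8; adjusted p = 3.21e-07, Fisher's exact test). At the downstream edge of Id4, chr13:48263001-48264000 had 44.0% in 60M-GS, against 32.4% in 5M-GS (11.6 points, 5.21 to 17.9; adjusted p = 0.00657, Fisher's exact test). A CpG-dense run here is a row of 20 or more CpGs, none over 50 bp from the next, that spans at least 200 bp. Of the 31 such runs of the 9 loci, 27 had under 2% methylated calls in both cultures. Low levels were usual for such runs, the median over all 23248 being 0.603% in 60M-GS and 0.572% in 5M-GS.

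Another 3 dense runs lay in gene spans and were methylated in both cultures. The Lhx1 run chr11:84519504-84520594 (69 CpGs, 5485 bp downstream of the start) had 92.0% in 60M-GS, against 90.2% in 5M-GS. The Bcl6b run chr11:70226662-70227022 (21 CpGs) had 93.3% in 60M-GS, against 85.6% in 5M-GS, 7.64 points higher (adjusted p = 9.97e-05, Fisher's exact test). The Mycn run chr12:12936992-12937708 (42 CpGs, 4486 bp downstream) had 91.7% in 60M-GS, against 77.5% in 5M-GS, 14.2 points higher (adjusted p = 7.76e-20, Fisher's exact test). All 3 had 77.5% or more in each culture, and both differences that passed the test were under 20 points.

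In all, 1 of 31 dense runs was gained and 0 were lost, against 5.13% gained and 0.120% lost among 23248 runs. The gained run, chr11:70215331-70215792, lay in the downstream flank of Bcl6b and over Slc16a11, a neighbouring gene of the monocarboxylate transporter family. It had 31.5% in 60M-GS, against 4.04% in 5M-GS (27.5 points; adjusted p = 5.39e-55, Fisher's exact test). The tile over it, chr11:70215001-70216000, had 29.2% in 60M-GS, against 6.92% in 5M-GS (22.2 points; adjusted p = 1.66e-43, Fisher's exact test). Calls on one read are not independent, so each region was also tested with its calls divided by its number of CpGs. The run then had an adjusted p of 0.109 and the tile one of 1. The division treats each read as covering every CpG of a region. Where reads cover fewer, the divided p tends to be too large and does not show that no difference exists. Values with divided calls are given for called regions only, so the p-values of other regions count calls on one read as independent. The promoter window of Bcl6b itself had under 0.5% in both cultures.

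Over whole loci, promoters included, Gfra1 stood at 77.6% in 60M-GS, against 77.5% in 5M-GS, and Ret at 74.2% in 60M-GS, against 74.5% in 5M-GS. Etv5 stood at 74.6% in 60M-GS, against 74.2% in 5M-GS, and Ccnd2 at 54.6% in both. The 5 shortest genes were lower. Lhx1 had 41.1% in 60M-GS, against 37.9% in 5M-GS, a difference of 3.18 points (2.14 to 4.23), and Bcl6b had 33.1% in 60M-GS, against 30.9% in 5M-GS, 2.24 points (1.18 to 3.30). Id4 had 49.3% in 60M-GS, against 49.8% in 5M-GS. Pou3f1 had 34.6% in 60M-GS, against 36.4% in 5M-GS, a difference of -1.76 points (-2.90 to -0.62). Mycn had 42.3% in 60M-GS, against 44.0% in 5M-GS, -1.67 points (-2.97 to -0.37). Such levels also shift with the share of calls in the promoter stretch, where few calls were methylated. For Pou3f1 this share was 7510 of 14270 calls in 60M-GS, against 6546 of 12964 in 5M-GS. With the promoter stretch set aside, 8 loci were mostly methylated, with 65.3% to 85.6% in 60M-GS, against 62.0% to 87.5% in 5M-GS. Bcl6b, with the neighbours Slc16a11, Slc16a13 and Rnasek in its flanks, had 39.6% in 60M-GS, against 36.5% in 5M-GS. Outside this stretch the difference, 60M-GS minus 5M-GS, was 0.11 points at Mycn and -0.74 at Pou3f1. It was 3.27 at Lhx1 and 3.15 at Bcl6b, and -1.94 at Ret and -1.88 at Id4. Gfra1, Etv5 and Ccnd2 had 0.43, -0.54 and -1.07 points. The lower whole-locus level of Mycn in 60M-GS was thus not seen outside its promoter stretch. Inside it, Mycn had 2.40% in 60M-GS, against 3.43% in 5M-GS (-1.03 points). The Pou3f1 stretch had 1.42% in 60M-GS, against 1.22% in 5M-GS (0.20 points). Both whole-locus differences were larger in size than those of either part. The Mycn stretch held 5424 of 11232 calls in 60M-GS, against 5191 of 11120 in 5M-GS. The part of these call shares in the differences was not tested. Calls in 60M-GS over those in 5M-GS ranged from 0.914 at Etv5 to 1.10 at Pou3f1, beside a central 95% range of 0.841 to 1.08 over 25241 windows of 100 kb. The part of this depth ratio in the levels was not tested.

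Of 544 tiles of 1 kb over the 9 loci, 3 were gained (0.551%) and 2 lost (0.368%), against 3.48% gained and 0.475% lost among 1689849 tiles. Low stretches were defined as rows of 4 or more CpGs, none over 1000 bp from the next, whose running level over 5 CpGs was under 50% with the calls of both tables together. The 9 loci held 46 of them, of which 5 were gained (10.9%) and 3 lost (6.52%), against 15.8% gained and 4.12% lost among 86112 stretches. The median difference over the 46 was 0.69 points, beside 0.87 over all stretches. Tiles, runs and stretches overlap, so calls of different kinds at one site are not separate observations. Of the stretches, 9 were around promoters, 20 elsewhere in gene spans and 17 in flanks. Promoter stretches of Lhx1 (1.29 points), Id4 (1.27) and Ccnd2 (0.53), higher in 60M-GS, and of Mycn (-1.03) passed the adjusted p without a call. Those of the other genes did not pass it. The gene span stretches belonged to Gfra1 (14), Etv5 (4) and Ret (2), while Bcl6b, Lhx1, Id4, Pou3f1, Ccnd2 and Mycn had 0 inside the gene beyond the promoter stretch.

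**Figure D3:**
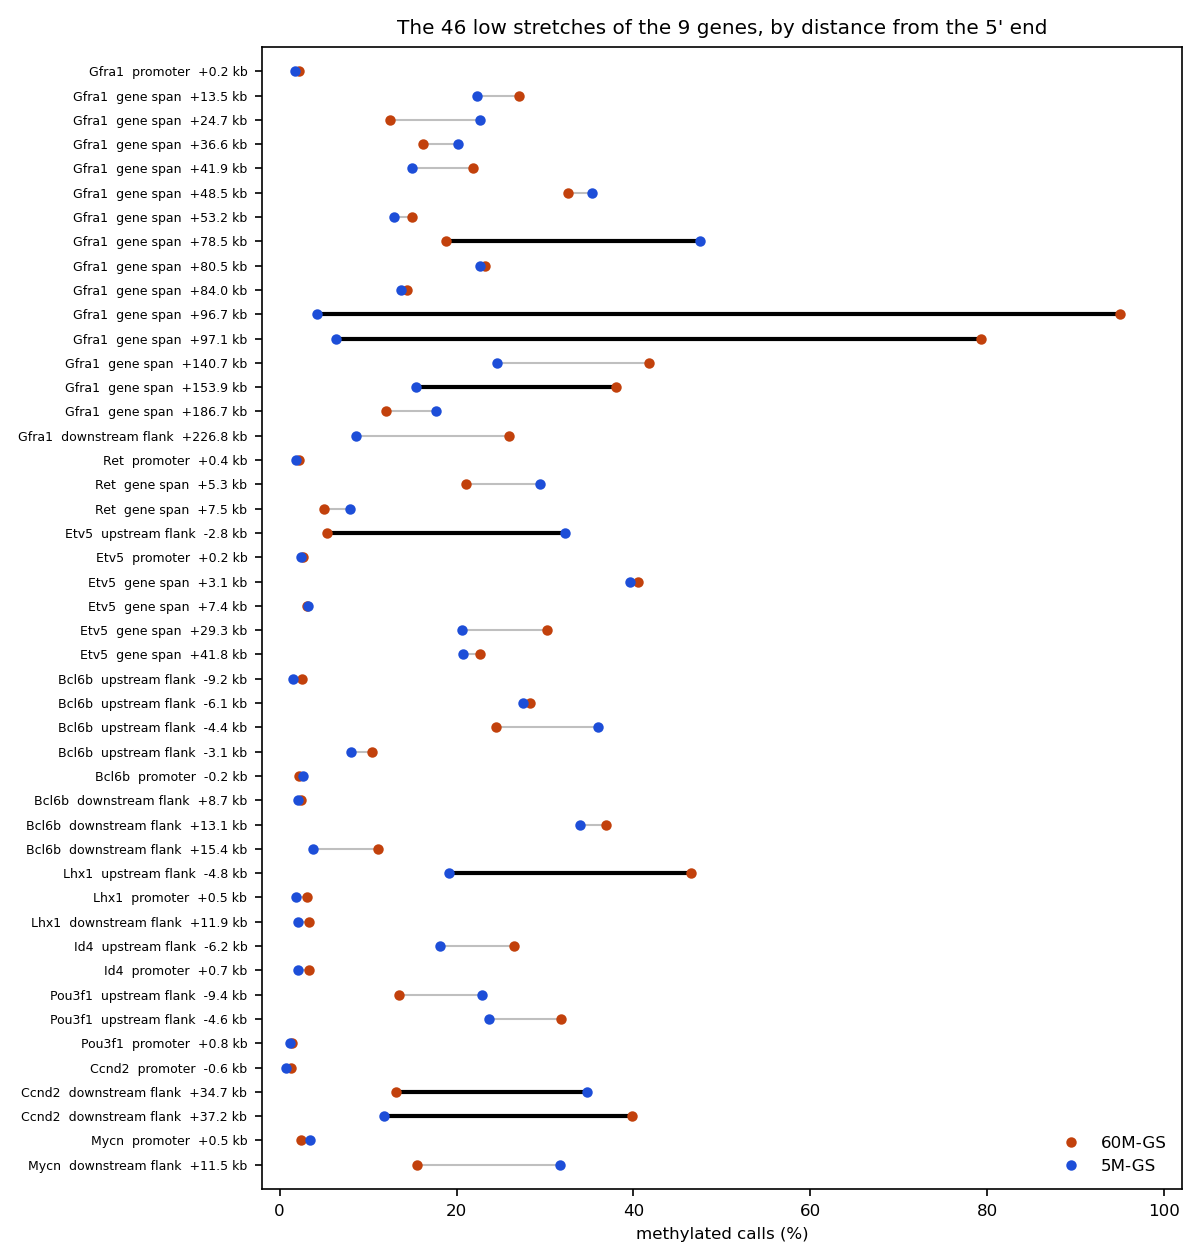
Level (% methylated calls) of the 46 low stretches, 60M-GS in orange and 5M-GS in blue, listed by gene and distance of the stretch from the 5′ end. Thick black lines join the 8 stretches called gained or lost, and a pair in Gfra1, centred 96726 and 97136 bp downstream, shows the widest gaps.

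Gfra1 carried the largest difference among the called regions. The tile chr19:58358001-58359000, inside the annotated gene 96898 bp downstream of the start, had 88.0% methylated calls in 60M-GS (822 calls) and 10.1% in 5M-GS (858 calls). The difference was 77.8 points (74.6 to 80.6; adjusted p = 1.39e-249, Fisher's exact test), and it was also called with divided calls (adjusted p = 7.69e-06). Gains of at least this size occurred in 625 of all 1689849 tiles (0.0370%). Whether this site is exonic or intronic was not analysed here, since the annotation used held no exons.

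The difference ran through nearly every CpG of this tile. Single CpGs of the tile had between 64.9% and 100% methylated calls in 60M-GS (median 91.1%) and between 0% and 78.6% in 5M-GS (median 5.49%). Of the 30 with at least 10 calls in both tables, 23 had at least 80% in 60M-GS and at most 20% in 5M-GS. In 5M-GS the part with a 5-CpG running level under 20% covered 26 CpGs over 675 bp, chr19:58358224-58358898, and in 60M-GS there was no such low part. CpGs outside the tile, within 2 kb of its centre, had 66.7% or more in 60M-GS and 64% or more in 5M-GS. The low stretch definition, which pools both tables, split the site into 2 stretches. At chr19:58358165-58358360 the level was 79.3% in 60M-GS, against 6.40% in 5M-GS, and at chr19:58358587-58358757 it was 94.9% in 60M-GS, against 4.24% in 5M-GS, both also called with divided calls (adjusted p = 8.88e-06 and 1.16e-11, Fisher's exact test).

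**Figure D4:**
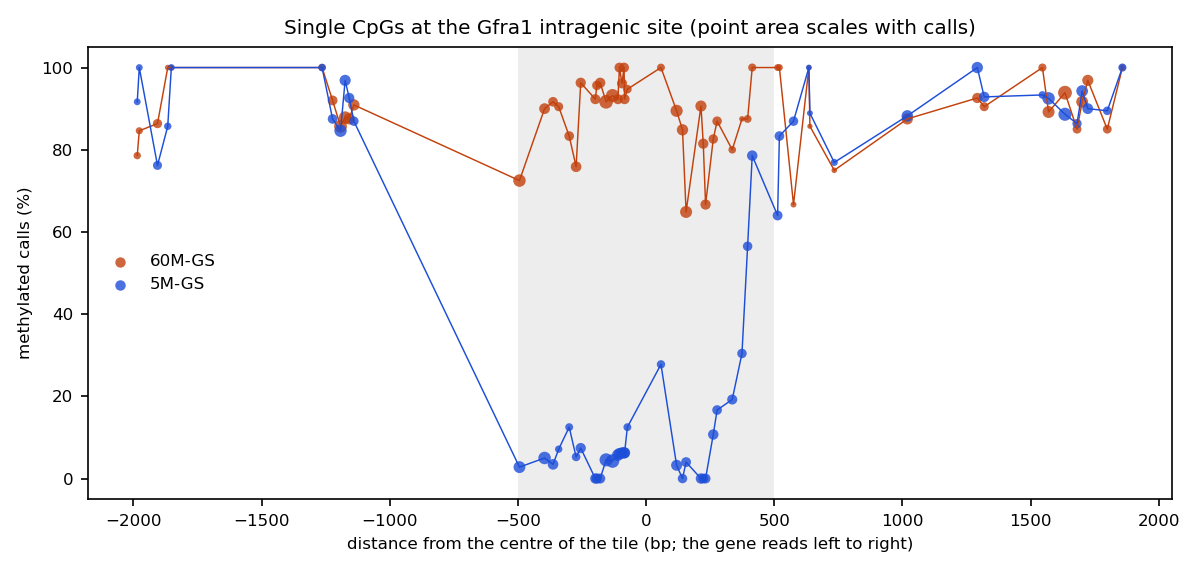
Methylated calls (%) of single CpGs (5 or more calls in each table) against distance in bp from the centre of the Gfra1 tile (grey band), 60M-GS in orange and 5M-GS in blue, with point area scaling with calls. Lines join neighbouring CpGs. All 60M-GS points in the band lie at 64.9% or above, and the 5M-GS points have a median of 5.49%.

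The Gfra1 span held 15 low stretches, its promoter included, or 6.81 per 100 kb, more than 89.0% of the 1991 genes of 100 to 400 kb, whose median was 2.54. This count holds both parts of the split site above, which were low in 5M-GS only (79.3% and 94.9% in 60M-GS). The lowest intragenic stretch over the calls of both tables, chr19:58401497-58402921 at 53189 bp downstream, had 14.9% in 60M-GS, against 13.0% in 5M-GS (adjusted p = 0.513, Fisher's exact test). Another at chr19:58371045-58371719 had 14.3% in 60M-GS, against 13.8% in 5M-GS, and one at chr19:58374596-58375165 had 23.2% in 60M-GS, against 22.6% in 5M-GS. Another 3 stretches in the gene span passed the adjusted p with differences under 20 points. At chr19:58268212-58269251 the level was 12.0% in 60M-GS, against 17.6% in 5M-GS (-5.65 points; adjusted p = 0.0363, Fisher's exact test). At chr19:58314405-58314984 the level was 41.7% in 60M-GS, against 24.6% in 5M-GS (17.1 points; adjusted p = 2.62e-05, Fisher's exact test). At chr19:58430217-58431132 it was 12.5% in 60M-GS, against 22.7% in 5M-GS (-10.19 points; adjusted p = 0.00882, Fisher's exact test).

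One further Gfra1 stretch was gained and one was lost. At chr19:58301293-58301770, 153866 bp downstream, the level was 38.0% in 60M-GS, against 15.4% in 5M-GS (22.6 points, 15.0 to 29.9; adjusted p = 4.82e-08, Fisher's exact test). Closer to the start, 78501 bp downstream, chr19:58376722-58377072 went the other way, with 18.8% in 60M-GS, against 47.5% in 5M-GS (-28.69 points, -39.75 to -16.97; adjusted p = 6.30e-06, Fisher's exact test). With divided calls these had adjusted p-values of 0.499 and 0.510. In the downstream flank, chr19:58228144-58229054 had 25.9% in 60M-GS, against 8.68% in 5M-GS, 17.2 points higher (adjusted p = 1.46e-17, Fisher's exact test), under the limit of 20 points. Gfra1 thus had levels that were higher and lower in 60M-GS within one gene, with a median tile difference of -0.62 points over 227 tiles, beside -0.45 over all tiles of the genome.

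**Figure D5:**
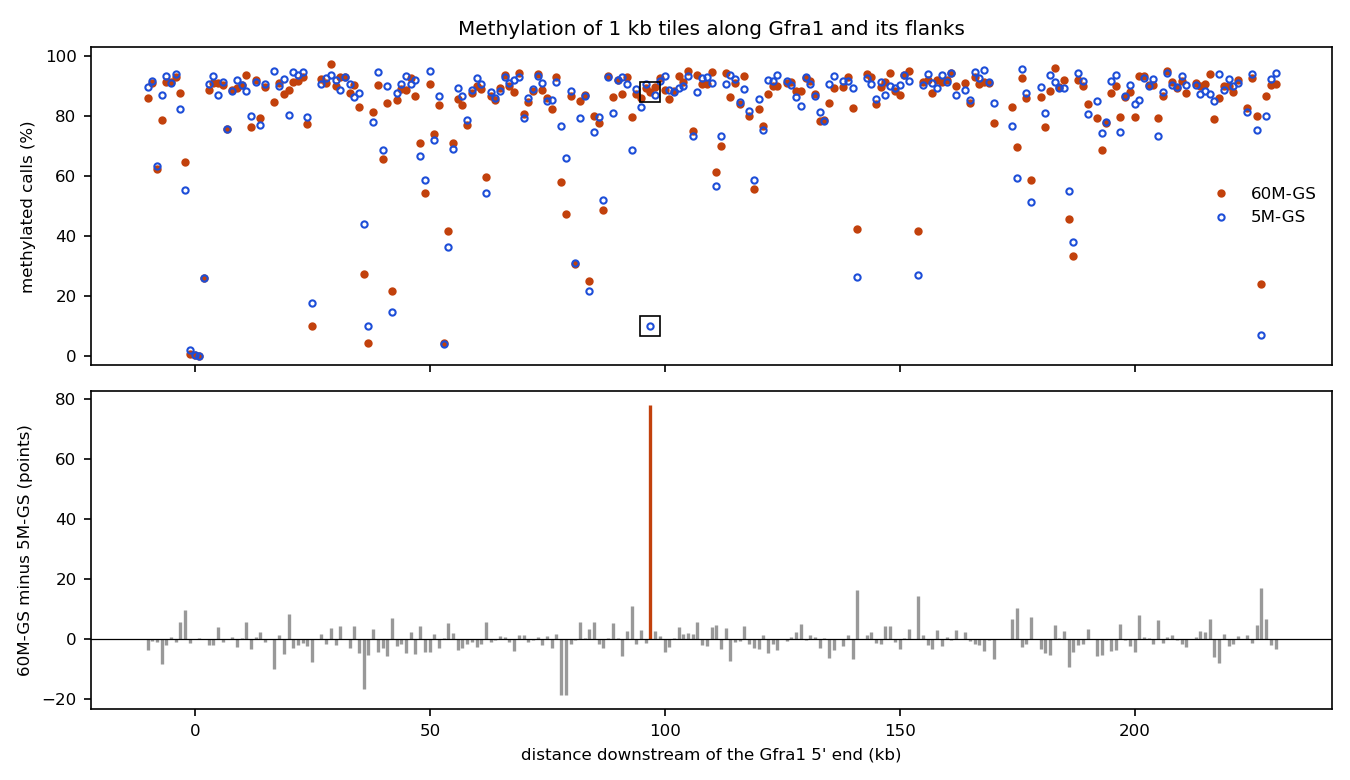
Methylated calls (%) of 1 kb tiles along Gfra1 and its flanks by distance downstream of the 5′ end in kb (top, 60M-GS filled orange, 5M-GS open blue) and their difference in points (bottom). The boxed pair 96898 bp downstream is the called tile, 88.0% in 60M-GS, against 10.1% in 5M-GS.

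Ret had 2 low stretches inside the gene, both lower in 60M-GS. The lowest, chr6:118189421-118191008 at 7530 bp downstream, had 5.08% in 60M-GS, against 7.97% in 5M-GS (-2.90 points, -6.09 to 0.08; adjusted p = 0.110, Fisher's exact test). The one nearer the promoter, chr6:118191712-118193149, had 21.0% in 60M-GS, against 29.4% in 5M-GS (-8.37 points, -15.29 to -1.51; adjusted p = 0.0411, Fisher's exact test). No region of Ret was called.

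Etv5 had its lowest intragenic site at chr16:22431667-22432615, 7429 bp downstream, where 20 CpGs had 3.14% in 60M-GS, against 3.22% in 5M-GS. The tile chr16:22429001-22430000, 10070 bp downstream, was gained, with 88.8% in 60M-GS, against 65.5% in 5M-GS (23.3 points, 18.7 to 27.9; adjusted p = 6.31e-20, Fisher's exact test). A small stretch placed at -2840 bp from the start, chr16:22442294-22442527 with 5 CpGs, was lost, with 5.37% in 60M-GS, against 32.3% in 5M-GS (-26.91 points, -34.35 to -18.98; adjusted p = 1.25e-09, Fisher's exact test). With divided calls the adjusted p-values were 1 and 0.125. Etv5 thus had a tile that was higher and a flank site that was lower in 60M-GS, and the promoter between them was not called.

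The remaining calls lay in flanks. Upstream of Lhx1 and over Lhx1os, chr11:84530069-84530593 was gained, with 46.5% in 60M-GS, against 19.2% in 5M-GS on 4 CpGs (adjusted p = 0.000231, Fisher's exact test). Downstream of Ccnd2, chr6:127114274-127115733 was gained, with 39.8% in 60M-GS, against 11.8% in 5M-GS on 28 CpGs (adjusted p = 3.41e-35, Fisher's exact test). Just beside it, chr6:127116735-127118149 was lost, with 13.2% in 60M-GS, against 34.7% in 5M-GS (adjusted p = 5.91e-06, Fisher's exact test). These adjacent Ccnd2 sites moved in opposite directions. The tile chr6:127117001-127118000, with only 4 CpGs, was lost too, with 9.52% in 60M-GS, against 43.2% in 5M-GS (adjusted p = 1.25e-06, Fisher's exact test). Downstream of Mycn, the tile chr12:12931001-12932000 was lost, with 44.7% in 60M-GS, against 67.1% in 5M-GS (adjusted p = 6.08e-05, Fisher's exact test). With divided calls none of these 5 regions was called, at adjusted p-values of 0.203 to 1.

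Id4 and Pou3f1 had no called tile, dense run or low stretch. The Id4 locus held a stretch at -6161 bp from the start, over the neighbouring gene A330033J07Rik, with 26.5% in 60M-GS, against 18.1% in 5M-GS (adjusted p = 0.0444, Fisher's exact test). The Pou3f1 locus held chr4:124647504-124649016, at -9386 bp from the start and over Gm2164, with 13.5% in 60M-GS, against 22.8% in 5M-GS (-9.33 points; adjusted p = 1.17e-06, Fisher's exact test). Both differences were under 20 points.

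Promoter windows of 76 further genes were read the same way, and 73 could be tested. Besides genes of the pathway and genes regulated by GDNF, they include 4 FGF2 receptors and 12 paralogs of the members. None was gained and none lost, beside 4.42% and 0.474% of all windows. The median difference of the 73 was 0.08 points. Of the 73, 66 were under 10% in each culture. Among all 29548 windows, 14149 were under 10% in 60M-GS, against 14828 in 5M-GS. Shares called among the listed and among all windows therefore compare sets that differ in level. Among the ligands, Gdnf had 3.84% in 60M-GS, against 3.01% in 5M-GS, Nrtn 0.596% in 60M-GS, against 0.501% in 5M-GS, Artn 5.18% in 60M-GS, against 5.27% in 5M-GS, and Pspn was methylated, with 90.5% in 60M-GS, against 90.7% in 5M-GS. Downstream of RET, the adaptor genes Shc1, Gab1 and Gab2 were under 2% in both cultures. Grb2, an adaptor that links receptor kinases to RAS, was the nearest to a call, with 83.3% in 60M-GS, against 64.2% in 5M-GS (19.1 points; adjusted p = 4.43e-11, Fisher's exact test) in the window of its outermost listed start, which need not be its main promoter.

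Feedback regulators of receptor kinase signalling were unmethylated, with Spry1, Spry2, Spry4 and Spred1 under 1% in both cultures. Of the related transcription factors, Etv1 had 0.272% in 60M-GS, against 0.296% in 5M-GS, Etv4 3.04% in 60M-GS, against 2.11% in 5M-GS, and Egr3 0.628% in 60M-GS, against 0.915% in 5M-GS. Egr2 had 9.05% in 60M-GS, against 4.08% in 5M-GS (4.97 points; adjusted p = 3.01e-05, Fisher's exact test). Fgfr1, Fgfr2, Fgfr3 and Fgfr4, receptors for the FGF2 in the medium, lay between 1.51% and 5.66% in 60M-GS and between 0.682% and 4.73% in 5M-GS. Of the paralogs of the members, Bcl6 and Lhx5 were under 1% in both, Id2 had 1.41% in 60M-GS, against 1.01% in 5M-GS, and Id3 had 8.02% in 60M-GS, against 5.65% in 5M-GS (adjusted p = 0.0147, Fisher's exact test). Listed windows that passed the adjusted p went both ways. Further ones were Mapk3, Nanos2, Tspan8 and Ccnd3, lower in 60M-GS, and Sos1, Ptpn11 and Dok5, higher in 60M-GS, all by less than 20 points.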

How the data were processed

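Per the labels' protocols, genomic DNA of 2 replicates per culture age went into whole-genome libraries by adaptor tagging after the bisulfite step. The submitters' processing notes name Bismark 0.10.0 and mm10. The authors deposited 1 table per age, with replicates pooled. It gives counts of methylated and of unmethylated calls per CpG, with no normalization stated, and the percent methylated. How reads were filtered, deduplicated and merged over strands is not given in the sources used here. The deposited percent was used only to check the counts.

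Levels, regions and tests were computed from the counts with Python 3.11.15, numpy 2.4.6, pandas 2.3.3 and numba 0.67.0. The routine for Fisher's exact test was checked against that of scipy 1.17.1. A region entered with 4 or more CpGs of 5 or more calls in each table. Its p is from a two-sided Fisher's exact test, adjusted by Benjamini-Hochberg over all regions of a kind on chromosomes 1 to 19 and X. Intervals are 95% Wilson intervals, and Newcombe's for differences. They cover counting error only. Calls that share a read are dependent.

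RefSeq genes (GRCm38.p6, the assembly of mm10) gave spans, and its promoter table gave 26794 of 34328 protein-coding and lncRNA genes a start, with 5 of the 9 members among them. A further 4569 genes were placed at their CpG-dense end, the one whose 300 bp surroundings held 2 or more times as many CpGs as the other's. Exons and sequence inside genes were not used here.

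The members, lists, thresholds and region kinds were chosen with earlier results of these data known. Named in the text are all members, every called region, each member's lowest intragenic stretch and up to 4 genes per list in list order. Regions named outside this rule were chosen after their values were seen. They were the uncalled Gfra1, Ret, Id4 and Pou3f1 stretches, the tiles at the edges of Lhx1 and Id4, and the methylated dense runs. Uncalled promoter stretches of Lhx1, Ccnd2 and Mycn were also chosen this way. The same holds for the windows of Mapk3, Nanos2, Tspan8, Ccnd3, Sos1, Ptpn11 and Dok5.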

Additional observations from a re-analysis of the deposited data

How the results depend on the processing

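Replicates are pooled in each table, so leaving out each replicate was not run and no spread between replicates was measured. No paired analysis was possible because the tables hold no replicate columns. Depth limits single sites: several called regions hold only 4 to 10 CpGs.

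Among the members, 3 tiles gained and 2 lost, 1 dense run gained, and 5 low stretches gained and 3 lost. With calls divided by the number of CpGs, 1 of 544 tiles gained (0.501% of all tiles) and 0 lost (0.0158%), 0 of 31 runs gained (3.06% of all runs), and 2 of 46 stretches gained (9.53% of all stretches) and 0 lost (0.890%), the remaining 3 regions all at the one Gfra1 site. Called at 10 points, 12 tiles gained (5.48% of all) and 10 lost (1.66%), 2 runs gained (7.18%), 7 stretches gained (21.1%) and 6 lost (9.88%). At this setting 1 of the windows of the 73 other listed genes gained (Grb2, beside 7.14% of all windows). Another was lost (Tspan8, 23.1% in 60M-GS, against 34.2% in 5M-GS, beside 1.89% of all windows). Called at 30 points, 1 tile gained (2.02% of all) and 1 lost (0.141%), 0 runs gained (4.04%), and 2 stretches gained (12.1%) and 0 lost (1.72%). Tiles shifted by 500 bp gave 5 of 541 gained (3.49% of all) and 3 lost (0.475%). Tiles of 500 bp gave 9 of 821 gained (4.06%) and 4 lost (0.787%), and tiles of 2 kb gave 1 of 287 gained (3.76%) and 2 lost (0.266%). Dense runs with gaps of at most 100 bp gave 3 of 48 gained (11.8% of all) and 1 lost (0.634%). A running level under 30% gave 2 of 33 stretches gained (7.92% of all) and 0 lost (2.14%). A 9-CpG running level gave 3 of 41 gained (15.8%) and 3 lost (3.78%). The tile and stretch totals differ by construction between these settings. The cause was otherwise not tested. No member promoter window was called under any of the 7 alternatives run, where 1.24% to 7.14% of all windows were gained and 0.0271% to 1.89% lost.

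Stretches low in at least 1 table, an alternative chosen after seeing the data, joined the Gfra1 site into chr19:58358127-58358996, with 87.7% in 60M-GS, against 6.44% in 5M-GS. This alternative gave 4 of 48 stretches gained (25.8% of all) and 4 lost (5.29%). Among the lost was chr12:12929522-12931401 downstream of Mycn, with 31.9% in 60M-GS, against 52.3% in 5M-GS. The main definition called no Mycn stretch. The 74 alternative extents stayed within 1.5 times the reported length.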
